A study of Mus musculus with 6 samples.

Results

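Nuclear receptors are transcription factors, most of which are switched by small molecules that cross membranes, such as steroids, thyroid hormone, retinoic acid, vitamin D and sterols. A typical member binds DNA through a pair of zinc fingers, often as a heterodimer with a retinoid X receptor, and exchanges corepressors for coactivators when its ligand arrives. Orphan members act without a known ligand. In bone marrow, retinoic acid, glucocorticoid and NR4A receptors are known for their influence on whether stem and progenitor cells divide, rest or differentiate.

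The members were taken from a list of 46 mouse genes of the family, and 44 of them were measured, among 18193 genes in all. Nr1h2 and Nr2e3 had no probe set assigned to them alone and were not analysed here. RNA came from LSK cells (lineage-negative, Sca1-positive, c-Kit-positive), the bone marrow fraction in which haematopoietic stem cells and their multipotent progeny are found, sorted from C57BL/6 mice aged 6 to 7 weeks. There were 3 IkL/L samples, each pooled from 2 mice homozygous for a hypomorphic allele of Ikzf1, which lowers the amount of the zinc finger protein Ikaros and 3 WT samples of 1 mouse each. The comparison asks how the transcriptome of these progenitors differs when Ikaros is scarce.

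Values are log2 intensities of Affymetrix probe sets after robust multiarray averaging (RMA), and a gene was read from the brightest of the probe sets assigned to it alone. Differences are log2 fold changes, IkL/L minus WT, fitted with limma over all 45037 probe sets. A gene was called when its p, adjusted by the Benjamini-Hochberg method over all probe sets, was under 0.05. With 3 arrays per genotype, the number of arrays limits the precision, and the p-values measure the spread between these samples. Only the IkL/L samples were pooled, so pooling cannot be told apart from genotype, in level or in spread.

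Ikzf1 itself was called lower, at 10.77, 10.85 and 10.93 on the IkL/L arrays and 11.57, 11.59 and 11.44 on the WT arrays (-0.68, adjusted p = 0.0307). That call was lost when any array other than WT 3 was left out (adjusted p = 0.0645 to 0.157), and the position of the probe set around the mutated site was not analysed here. The LSK label was met by 9 of 10 measured marker genes, Kit and Cd34 among them, while Ly6a (Sca1) was not measured. These 9 lay on all arrays above 5.83, the level of unexpressed genes explained with the receptors' levels. Slamf1 did so on some arrays only. None of the 10 was called, and 4 did not overlap between the genotypes, against 17.2% of all genes. Flt3 (-0.88), Mecom (-0.47) and Lmo2 (-0.07) were lower on all IkL/L arrays, and Gata2 (0.30) was higher on all. Correlations between arrays were 0.986 to 0.995. On the first principal component the IkL/L arrays lay at 19.6 to 28, and the WT arrays at -18.6, -52.7 and 3.6, so that WT 2 stood apart. Marker lists of megakaryocytes, mast cells and basophils, erythroid cells, neutrophils, B lineage cells and endothelium had a higher mean on every IkL/L array than on every WT array, those of T and NK cells and of macrophages did not, and their part in the results was not tested. For mast cells and basophils the list means were 7.86 to 8.12 in IkL/L and 6.55 to 7.07 in WT. For neutrophils they were 6.47 to 7.10 in IkL/L and 5.75 to 6.22 in WT. Of the 9 neutrophil genes, 5 lay at the level of unexpressed genes throughout, S100a9, Ngp and Ltf included. So did Cd79a, Pax5 and Ebf1 of the B lineage, and Pecam1, Emcn, Kdr and Flt1 of endothelium. The same held for Slc4a1 and Hba-a1 of erythroid cells and Fcer1a of mast cells and basophils. Called higher were Elane and Lcn2 of neutrophils, Selp and Vwf of megakaryocytes, and Mcpt8 of mast cells and basophils. So were Ms4a1 and Vpreb1 of the B lineage, Aqp1 of erythroid cells and Cdh5 of endothelium. The differences of these called genes ranged from 1.38 (Vpreb1) to 3.76 (Selp), and their lists held no gene called lower. Ms4a1 and Lcn2 exceeded the level of unexpressed genes on some IkL/L arrays only. In bulk RNA of this kind, fewer cells of a type and less RNA per cell cannot be told apart.

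Which receptors LSK cells express was asked first. RMA gives no detection call, so the levels of 43 measured genes of other tissues (liver, muscle, retina, brain, gut, testis and the like) served as a yardstick. Their means had a median of 3.89, and their 95th percentile, 5.83, is called the level of unexpressed genes from here on. A probe set's brightness also depends on its sequence, so receptors are set against this level only and are not ranked among each other.

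On all 3 arrays of a genotype, 16 receptors lay above it in IkL/L cells and 17 in WT cells. The same 16 were above it in both genotypes, which is 36.4% of the measured receptors, against 49.6% of all genes. Another 24 receptors did not exceed it on any array. The remaining 4, Nr4a2, Rora, Esrrb and Pgr, did so on some arrays, and Nr4a2 alone did so on all 3 WT arrays without doing so on all 3 IkL/L arrays. With the line at the brightest gene of another tissue (6.52) the counts were 11 in IkL/L cells and 12 in WT cells, and with the line at the array median 23 in each.

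**Figure D1:**
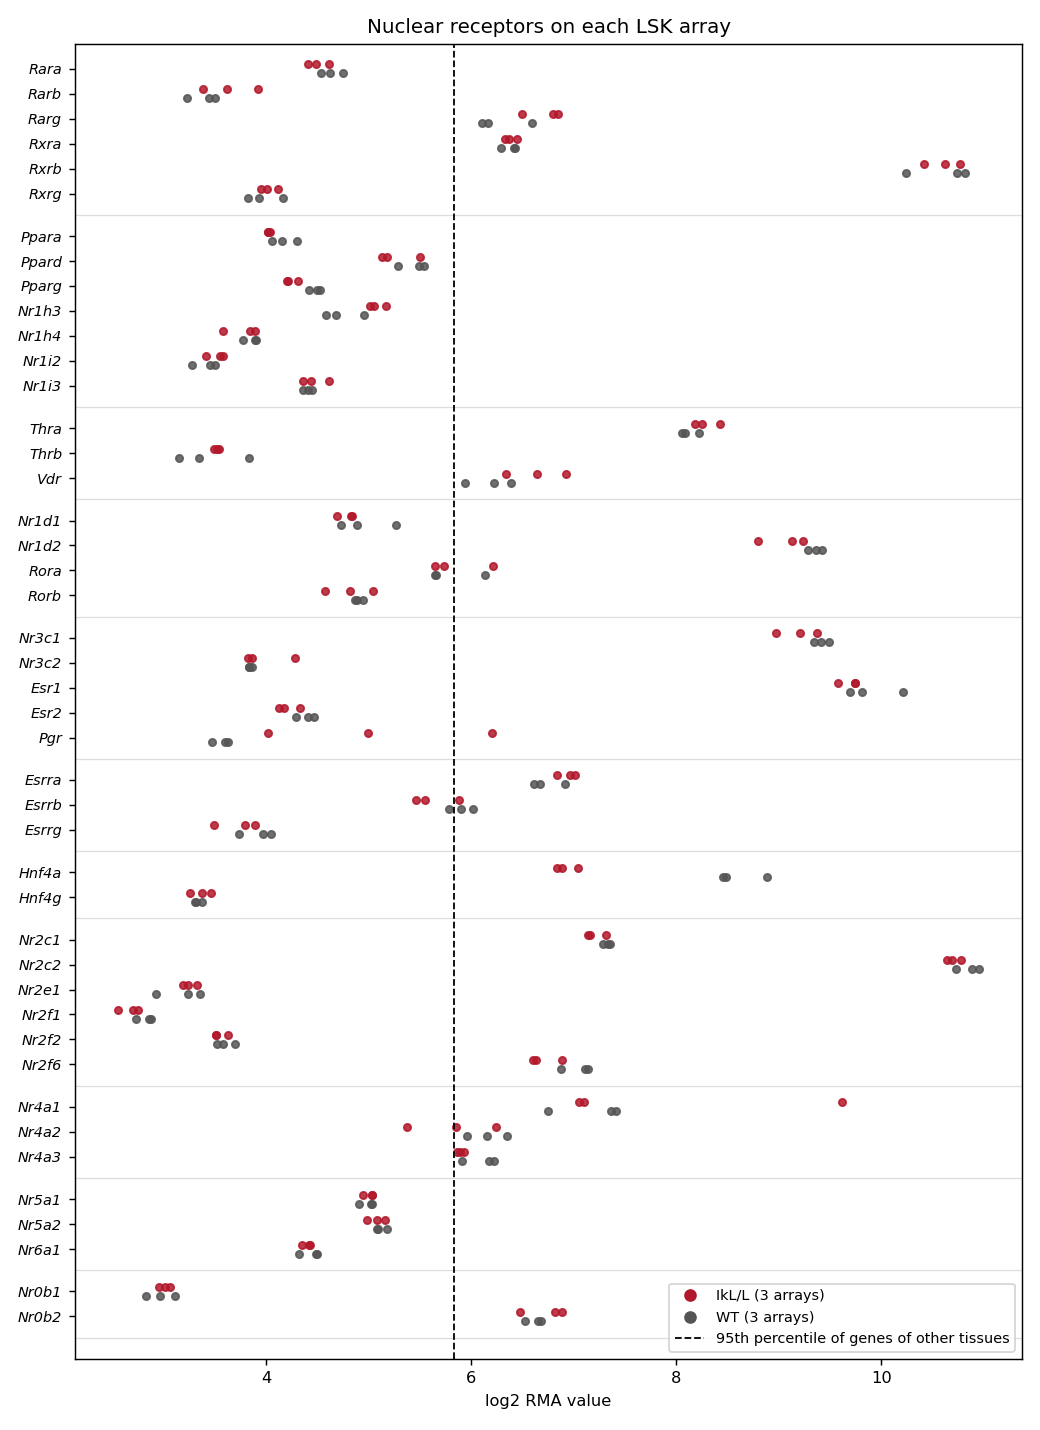
Log2 RMA values (horizontal axis) of the 44 measured nuclear receptors, grouped by role, with 1 point per array (3 IkL/L arrays in red, 3 WT arrays in grey) and the dashed line at 5.83, the level of unexpressed genes. Points of both genotypes overlap for most receptors, while those of Hnf4a are apart.

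Among the retinoid receptors, Rxrb and Rxra, the common heterodimer partners of the family, were present at 10.60 and 6.38 in IkL/L cells and 10.60 and 6.38 in WT cells. Rarg, a retinoic acid receptor, was above the level of unexpressed genes too, whereas Rara (4.50 in IkL/L, 4.64 in WT), Rarb and Rxrg were not. Of the hormone and vitamin receptors, Thra, the thyroid hormone receptor alpha (8.29 in IkL/L, 8.12 in WT), and Vdr, the vitamin D receptor, were present, and Thrb was not. Rara, Rarb, Rxrg and Thrb were each read by 1 probe set. Rxra in both genotypes, and Rarg (6.29) and Vdr (6.18) in WT cells, averaged below the brightest gene of another tissue (6.52). None of the 7 measured receptors for fatty acids, sterols, bile acids and xenobiotics reached the line on any array. These were the 3 PPARs, Nr1h3 (LXR alpha), Nr1h4 (FXR), Nr1i2 (PXR) and Nr1i3 (CAR).

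The steroid receptors divided in the same way. Nr3c1, the glucocorticoid receptor, and Esr1, the oestrogen receptor alpha, averaged 9.19 and 9.69 in IkL/L cells and 9.41 and 9.91 in WT cells, while Nr3c2, the mineralocorticoid receptor, and Esr2 stayed between 3.84 and 4.39 on average. Of the orphan receptors, Nr2c1 and Nr2c2, which pair to repress embryonic globin genes in erythroid cells, averaged 7.20 and 10.70 in IkL/L cells and 7.33 and 10.86 in WT cells. Esrra, a regulator of mitochondrial genes, averaged 6.94 in IkL/L cells and 6.73 in WT cells, and Nr0b2 (SHP), which lacks a DNA-binding domain and inhibits other receptors, averaged 6.73 in IkL/L cells and 6.62 in WT cells. Receptors of gonads, brain and endoderm (Nr5a1, Nr5a2, Nr6a1, Nr2e1, Nr2f1, Nr2f2 and Nr0b1) lay below the line on all arrays.

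The difference between the genotypes was then examined across the family. Of the 44 receptors, 1 was called, Hnf4a, which fell; of all genes 0.989% were called, and 0.242% were called lower. The adjusted p of the other 43 was 0.333 or more. An unadjusted p under 0.05 was reached by 8 receptors, 4 in each direction, or 18.2%, against 11.2% of all genes. The values of the genotypes did not overlap for 6 receptors, or 13.6%, against 17.2% of all genes. In 2 of them all IkL/L values were higher (7.62% of all genes) and in 4 all were lower (9.59% of all genes). The median difference was -0.04 for the receptors and -0.02 for all genes, with 21 receptors above 0 and 23 below.

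In size, 41 of the 44 differences were under 0.5 on the log2 scale in either direction, and Hnf4a, Pgr and Nr4a1 were beyond it. The 95% interval reached a median of 0.28 to either side of the estimate, with a range of 0.21 to 1.45. For 8 of the 16 receptors present in both genotypes, the whole interval lay within 0.5 of 0. For the other 8, Hnf4a included, the interval reached beyond 0.5.

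**Figure D2:**
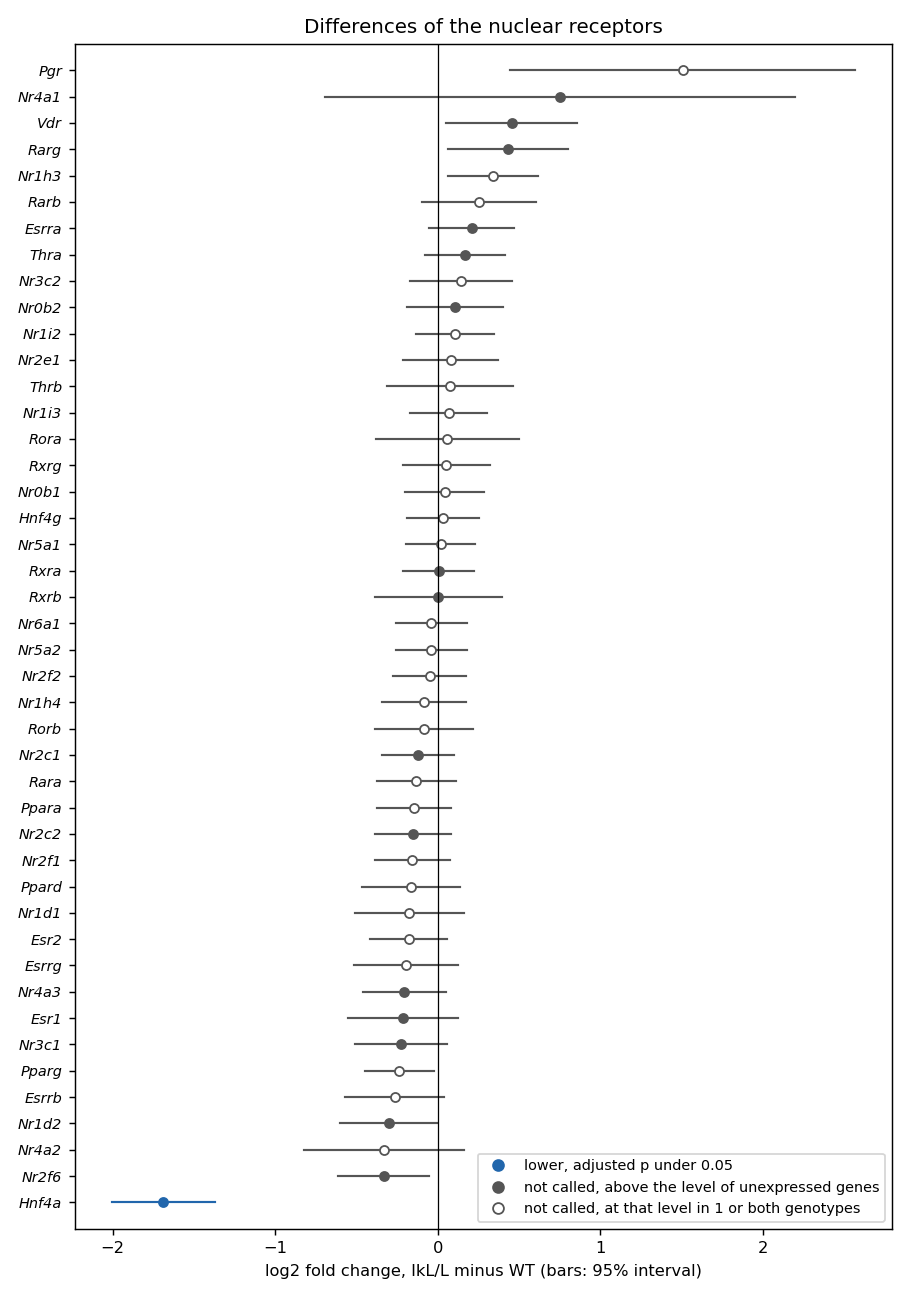
Log2 fold change, IkL/L minus WT, of each of the 44 measured nuclear receptors (horizontal axis), with the 95% interval of the limma fit as a bar, sorted by size. Hnf4a at -1.69 is the 1 receptor called, and open circles mark receptors that did not exceed the level of unexpressed genes on all arrays of both genotypes.

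Hnf4a encodes hepatocyte nuclear factor 4 alpha, a receptor that binds DNA as a homodimer and drives the gene programme of hepatocytes and intestinal epithelium. Its log2 values were 6.89, 7.04 and 6.84 on the IkL/L arrays and 8.89, 8.49 and 8.45 on the WT arrays. Every IkL/L array lay below every WT array, and both genotypes lay above the level of unexpressed genes. The difference was -1.69 (95% interval -2.00 to -1.37, adjusted p = 0.00306), a 3.22-fold lower level in IkL/L cells. The call held in each of 15 alternative fits, with differences of -1.77 to -0.93 and an adjusted p of 0.00127 to 0.0329. Without WT 2, the array that stood apart, the difference was -1.75 (adjusted p = 0.00842).

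The other probe sets of Hnf4a were dimmer. That with the third highest mean gave 3.52, 3.62 and 3.60 in IkL/L cells and 5.29, 4.59 and 5.22 in WT cells, and was called as well (-1.45, adjusted p = 0.0178). All of these values lie below the level of unexpressed genes, so the size of that difference is uncertain. The probe set with the second highest mean gave 4.47, 4.98 and 4.94 in IkL/L cells against 5.09, 4.95 and 5.02 in WT cells, which overlap (-0.22, adjusted p = 0.733). The last one gave -0.36 (adjusted p = 0.509), with all IkL/L values below all WT values. Which transcripts of Hnf4a each probe set covers was not analysed here. Among the 115 probe sets of the family, these 2 of Hnf4a were called, against 0.557% of all probe sets. The paralogue Hnf4g lay at the level of unexpressed genes, at 3.37 in IkL/L cells and 3.34 in WT cells.

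The liver targets of Hnf4a were examined next. Of 18 listed HNF4A targets and partners in hepatocytes, 15 were measured, 0 were called, and none exceeded the level of unexpressed genes on any array. The list included the apolipoproteins Apoa1, Apob and Apoc3, the transport protein Ttr and the gluconeogenic enzymes G6pc and Pck1. No member of it had an unadjusted p under 0.05. The 3 with the smallest p were F7, a clotting factor (0.26), Apoa2 (0.15) and Apoc2 (-0.14), with adjusted p-values of 0.604, 0.724 and 0.763. The 8 measured markers of adipocytes and liver, Alb and Adipoq included, likewise stayed below the line on all arrays. Apoa1, Apoa2 and Ttr are on both lists. Alb, Apoa2 and Fgb are among the genes of other tissues that set the line, so their place below it was largely given beforehand. The stroma and bone list had means of 5.23, 5.39 and 5.32 on the IkL/L arrays and 6.46, 5.93 and 5.50 on the WT arrays. Of its 10 genes, 4 lay at the level of unexpressed genes throughout, Col3a1, Lepr, Kitl and Lum. Col1a2 was at 7.65, 8.34 and 7.87 in IkL/L cells and 10.12, 9.56 and 7.78 in WT cells. Sparc was at 6.00, 6.13 and 5.77 in IkL/L cells and 8.48, 7.21 and 5.92 in WT cells. The bright Pdgfrb gave 0.07. None of the 10 was called. On all IkL/L arrays 5 of them were lower, Col1a1 (-1.43) and Dcn (-0.88) included, against 9.59% of all genes. Of the WT arrays, the brightest probe set of Hnf4a was highest on WT 1 and lowest on WT 3, in the same order as the stromal means. Of the IkL/L arrays, both were highest on IkL/L 2. This probe set was lowest on IkL/L 3 and the stromal mean on IkL/L 1. The other called probe set of Hnf4a was highest of the WT arrays on WT 1 and lowest on WT 2. The difference of the brightest probe set was -1.55 without WT 1 (adjusted p = 0.0218), and the part of stromal RNA in it was not tested.

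The promoters of Hnf4a, the 1 called gene of the family, are shown for their Ikaros core motifs. The gene is transcribed from an upstream and a downstream promoter, known as P2 and P1, the downstream one being that of adult liver. Sequences are from RefSeq on mouse assembly GRCm38.p6, from 250 bases before to 50 bases after the annotated start, on the plus strand, at chr2:163506607-163506906 (upstream) and chr2:163546905-163547204 (downstream). Capitals mark GGGAA or AGGAA, the core that Ikaros is known to recognise, searched on both strands, so that a match on the minus strand reads TTCCC or TTCCT here.
Hnf4a upstream promoter: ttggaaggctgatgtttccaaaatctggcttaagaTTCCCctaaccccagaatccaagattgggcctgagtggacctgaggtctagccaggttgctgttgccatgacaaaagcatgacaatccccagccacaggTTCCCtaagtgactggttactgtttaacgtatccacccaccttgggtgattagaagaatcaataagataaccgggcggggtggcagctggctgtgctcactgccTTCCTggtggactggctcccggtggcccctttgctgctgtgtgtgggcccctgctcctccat
Hnf4a downstream promoter: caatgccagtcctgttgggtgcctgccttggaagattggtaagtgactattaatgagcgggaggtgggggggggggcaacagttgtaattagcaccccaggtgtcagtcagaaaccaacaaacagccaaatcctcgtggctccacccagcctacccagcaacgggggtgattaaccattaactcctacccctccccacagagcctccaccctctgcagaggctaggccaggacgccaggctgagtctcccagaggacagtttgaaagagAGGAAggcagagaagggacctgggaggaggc
The upstream window held 3 matches, all on the minus strand, with their first base in the printed sequence at -215, -116 and -12 from the start, and the downstream window held 1 on the plus strand at 20. Of all 32851 promoters of this length 87.1% hold at least 1 such match, and of the 61 promoters of measured receptors 86.9% do. A match is a description of the sequence and not a binding site.

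**Figure D3:**
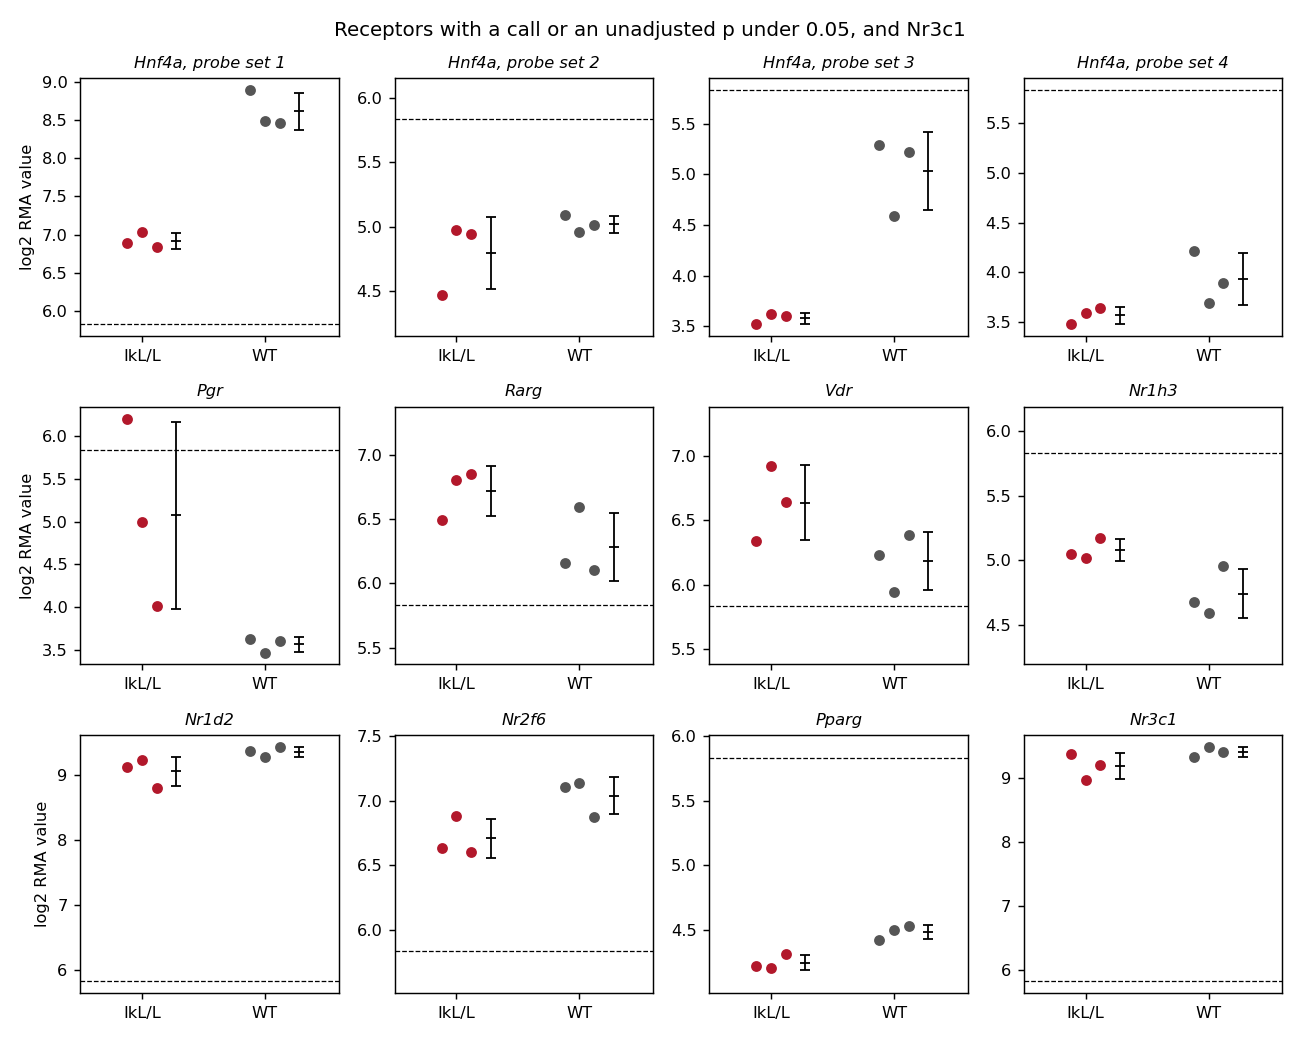
Log2 RMA values (vertical axes, each with its own range) of the 4 probe sets of Hnf4a in order of brightness, of the other 7 receptors with an unadjusted p under 0.05 and of Nr3c1, for IkL/L (red, left) and WT (grey, right). Points are arrays 1 to 3 from left to right, bars are the mean and SD, and the dashed line is the level of unexpressed genes. The values of Hnf4a probe sets 1, 3 and 4 do not overlap, nor do those of Pgr, Nr1h3, Nr1d2 and Pparg. Those of Pgr spread over the IkL/L arrays.

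Pgr, the progesterone receptor, had the largest positive difference of the family. Its values were 6.20, 4.997 and 4.01 on the IkL/L arrays and 3.62, 3.47 and 3.60 on the WT arrays. All IkL/L arrays were above all WT arrays, but IkL/L 1 alone exceeded the level of unexpressed genes. The difference of 1.51 was not called (adjusted p = 0.333), and it was 0.94 without IkL/L 1 and 2.04 without IkL/L 3. The other 2 probe sets of Pgr gave 0.02 and 0.03, with all values at the level of unexpressed genes.

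Rarg and Vdr had differences of like size, and neither was called. Rarg was at 6.49, 6.80 and 6.85 in IkL/L cells and 6.16, 6.59 and 6.10 in WT cells (0.43, adjusted p = 0.475). WT 2 was above IkL/L 1 here, so the genotypes overlapped. Vdr was at 6.34, 6.92 and 6.65 in IkL/L cells and 6.23, 5.94 and 6.38 in WT cells (0.45, adjusted p = 0.497), again with 1 overlapping pair. Their second probe sets gave 0.16 for Rarg and 0.31 for Vdr.

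Nr1d2 and Nr2f6 were the present receptors on the lower side with an unadjusted p under 0.05, besides Hnf4a. Nr1d2 encodes REV-ERB beta, a haem-binding repressor of the circadian clock, and was at 9.13, 9.24 and 8.80 in IkL/L cells and 9.37, 9.28 and 9.43 in WT cells (-0.30, adjusted p = 0.558). Its values did not overlap between genotypes, although IkL/L 2 and WT 2 were only slightly apart. Nr2f6, an orphan receptor known as a repressor of cytokine genes in T cells, was at 6.63, 6.88 and 6.61 in IkL/L cells and 7.11, 7.14 and 6.88 in WT cells (-0.33, adjusted p = 0.461). Here IkL/L 2 and WT 3 met at 6.88, and the second probe set gave -0.11.

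Among the dim receptors, Nr1h3 and Pparg did not overlap between the genotypes. Nr1h3, a receptor for oxysterols, was at 5.05, 5.01 and 5.17 in IkL/L cells and 4.68, 4.59 and 4.95 in WT cells (0.34, adjusted p = 0.444). Pparg, the regulator of fat cell differentiation, was at 4.22, 4.20 and 4.31 in IkL/L cells and 4.42, 4.49 and 4.52 in WT cells (-0.24, adjusted p = 0.499). At these levels neither receptor can be told from genes that are not expressed. The sixth receptor without overlap was Ppara, which was dim too (-0.15, adjusted p = 0.738).

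The glucocorticoid receptor illustrates how far probe sets of 1 gene may differ. The brightest probe set of Nr3c1 gave 9.38, 8.98 and 9.21 in IkL/L cells and 9.34, 9.49 and 9.41 in WT cells (-0.23, adjusted p = 0.668). Of its other bright probe sets, 1 gave 0.07 and 1 gave -0.40 (adjusted p = 0.394). A direction for Nr3c1 therefore depended on the probe set. Esr1 gave -0.21 and 0.07 from its bright probe sets, and those of Thra gave 0.17, 0.07 and 0.14.

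The NR4A receptors are orphan receptors induced within minutes by mitogens and stress, and in mice the loss of Nr4a1 together with Nr4a3 leads to leukaemia. Nr4a1 was at 7.05, 9.62 and 7.11 on the IkL/L arrays and 6.75, 7.41 and 7.36 on the WT arrays. IkL/L 2 stood far above the other arrays, which overlapped between genotypes. The difference of 0.75 was not called (adjusted p = 0.797, 95% interval -0.69 to 2.20), and it was -0.09 without IkL/L 2. Nr4a2 was at 5.86, 6.24 and 5.38 in IkL/L cells and 5.96, 6.16 and 6.35 in WT cells (-0.33, adjusted p = 0.727). Its second probe set was highest on IkL/L 2 as well, at 6.19, 7.26 and 5.40 in IkL/L cells and 6.04, 4.80 and 6.14 in WT cells (0.62, adjusted p = 0.786). Nr4a3 was at 5.86, 5.89 and 5.93 in IkL/L cells and 6.22, 6.18 and 5.91 in WT cells (-0.21, adjusted p = 0.661), close to the level of unexpressed genes and with no peak on IkL/L 2.

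Other immediate early genes were highest on the same array as Nr4a1. The 20 genes of that list, Fos, Jun and Egr1 included, had means of 8.46, 9.37 and 8.005 on the IkL/L arrays and 7.64, 8.20 and 8.33 on the WT arrays, and 17 of the 20 were highest on IkL/L 2. Of all genes 16.7% were highest on that array, and of the receptors 8 of 44. None of the 20 was called, the median difference was 0.48, and it was 0.10 without IkL/L 2. The 3 with the smallest p were Fosl2 (0.37, adjusted p = 0.217), Fosb (1.43, adjusted p = 0.541) and Btg2 (0.86, adjusted p = 0.567). The part of this array in the difference of Nr4a1 is given by the value without it.

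**Figure D4:**
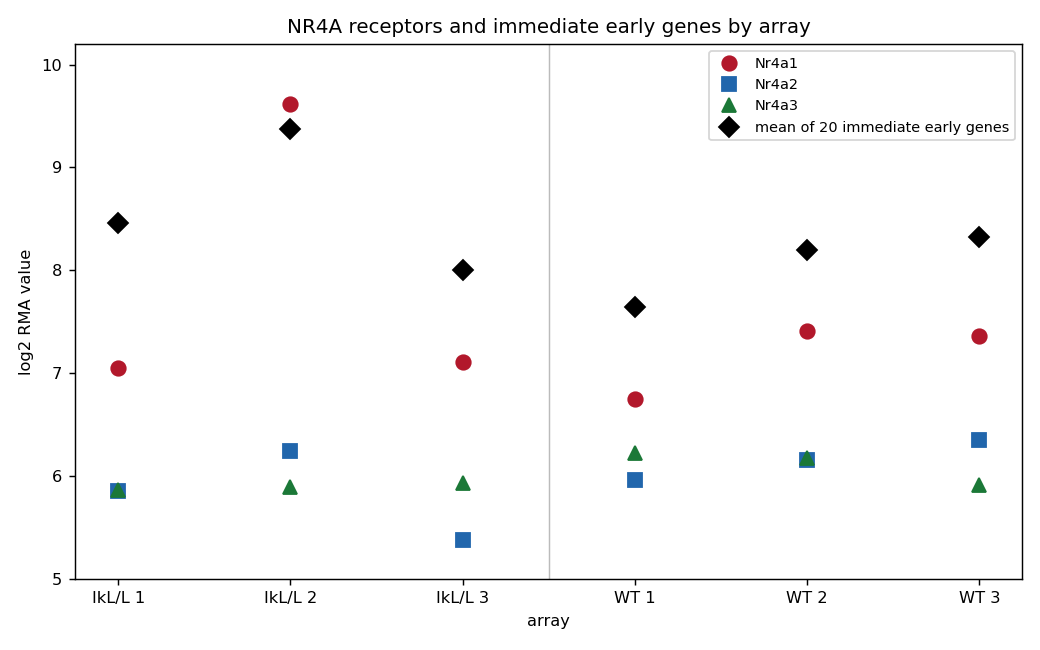
Log2 RMA values (vertical axis) of Nr4a1 (red circles), Nr4a2 (blue squares), Nr4a3 (green triangles) and the mean of 20 immediate early genes (black diamonds) on each of the 6 arrays, IkL/L left and WT right. Nr4a1 at 9.62 and the immediate early mean at 9.37 peak on IkL/L 2.

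The promoter of Nr4a1 is shown for a sequence element that is repeated in it. It lies at chr15:101266596-101266895 on the plus strand (RefSeq, GRCm38.p6, 250 bases before to 50 after the start). Capitals mark TGCGTCA, a motif resembling the elements bound by AP-1 and CREB proteins, which was chosen after the sequence had been read.
Nr4a1 promoter: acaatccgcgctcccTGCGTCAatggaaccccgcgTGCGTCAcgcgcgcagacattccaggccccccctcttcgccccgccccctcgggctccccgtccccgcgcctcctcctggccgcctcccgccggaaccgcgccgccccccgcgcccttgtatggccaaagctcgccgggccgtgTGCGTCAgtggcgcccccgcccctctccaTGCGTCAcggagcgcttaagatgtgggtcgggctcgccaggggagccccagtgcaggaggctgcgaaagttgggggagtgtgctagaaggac
There were 4 matches, at -235, -215, -71 and -42 from the start, none overlapping another. The motif, searched on both strands, is present in 2.12% of all promoters and in 1 of the 61 promoters found for 40 of the 44 measured receptors. Of the 32851 promoters, 1 holds 4 or more. In both counts the 1 promoter is that of Nr4a1, from which the motif was picked, so they are a description only.

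The genes through which receptors act were examined in lists by role. Of 168 distinct measured genes in them, receptors left out, 4 rose and 0 fell, against 0.748% of all genes higher and 0.242% lower. The lists were compared with all genes by their counts and medians only. The 4 were Apoe, Mt1, Klf9 and Cd14, and all IkL/L values of each were above all WT values.

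Coactivators and corepressors were well expressed and had no called gene. Of 18 coactivators and bridging factors 17 were above the level of unexpressed genes on all arrays, and the median difference was -0.08. The smallest p belonged to Ep300, a histone acetyltransferase (-0.37, adjusted p = 0.237), Ncoa2 (-0.45, adjusted p = 0.259) and Ncoa7 (-0.37, adjusted p = 0.339), each lower on all IkL/L arrays. Of 11 corepressors 8 were measured, all present, with a median of -0.08. Lcor, a ligand-dependent corepressor, was at 7.16, 7.11 and 6.86 in IkL/L cells and 7.59, 7.88 and 7.45 in WT cells (-0.60, adjusted p = 0.164), without overlap. Sin3a gave -0.34 (adjusted p = 0.499) and Tbl1x -0.31 (adjusted p = 0.712).

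Among 16 genes of retinoid metabolism, binding and response none was called, and the median was -0.04. Aldh1a1, which makes retinoic acid, was at 7.58, 8.39 and 7.04 in IkL/L cells and 6.50, 6.32 and 6.53 in WT cells (1.22, adjusted p = 0.188). Its genotypes did not overlap, and the spread over the IkL/L arrays was several times that over the WT arrays. Dhrs3, a retinaldehyde reductase, gave 0.51 (adjusted p = 0.431) and Tgm2, a transglutaminase induced by retinoic acid, 0.81 (adjusted p = 0.536). The retinol carrier Rbp4 and the CYP26 enzymes on the list lay at the level of unexpressed genes.

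Of 14 LXR and sterol targets 1 rose. Apoe, an apolipoprotein that carries cholesterol and is a known LXR target, was at 11.61, 11.87 and 11.04 in IkL/L cells and 9.52, 9.48 and 10.02 in WT cells (1.84, adjusted p = 0.0179), 3.57-fold higher. The median of the list was -0.09, and Abca1, Abcg1 and Srebf1 were not called. The call of Apoe was lost without IkL/L 1, IkL/L 2, WT 1 or WT 2 (adjusted p = 0.0519 to 0.114). Lpl, a lipase, gave 0.91 (adjusted p = 0.296) and Scd2, a desaturase, -0.21 (adjusted p = 0.583). Of 13 PPAR targets none was called, with a median of -0.02, and the smallest p belonged to Ehhadh (0.46, adjusted p = 0.161), Plin2 (0.46, adjusted p = 0.216) and the dim Ucp3 (-0.30, adjusted p = 0.480). Macrophages express Apoe strongly, and 8 of 11 macrophage markers, C1qa and Adgre1 included, lay at the level of unexpressed genes on all arrays. The expressed members Csf1r, the receptor for macrophage colony-stimulating factor (1.76, adjusted p = 0.00200), which was called, and Cd68, a lysosomal protein (1.17, adjusted p = 0.0651), which was not, were higher on all IkL/L arrays than on all WT arrays, as Apoe was. Vcam1, present on some arrays, gave -1.11 (adjusted p = 0.625), and the part of macrophage RNA in the difference of Apoe was not tested.

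Of 14 glucocorticoid targets 1 rose. Mt1, a metallothionein induced by glucocorticoids and by metals, was at 8.88, 9.07 and 8.67 in IkL/L cells and 7.72, 7.64 and 7.85 in WT cells (1.14, adjusted p = 0.0122), a 2.20-fold higher level. The call was lost without IkL/L 1 (adjusted p = 0.0748) or WT 1 (adjusted p = 0.0818). Its neighbour in the genome and in function, Mt2, gave 1.10 (adjusted p = 0.0854) and Anxa1, an anti-inflammatory annexin, 0.50 (adjusted p = 0.1), both without overlap. The median of the list was 0.48, against -0.02 for all genes, and 8 of the 14 were highest on IkL/L 2. Without that array the median was 0.12. Of 6 measured chaperones of the glucocorticoid receptor and enzymes that activate or inactivate its ligand none was called. Hsd11b1, which regenerates active glucocorticoid, was at 7.09, 6.77 and 6.95 in IkL/L cells and 5.79, 6.10 and 6.57 in WT cells (0.79, adjusted p = 0.199), Fkbp4 gave 0.28 and Bag1 0.13.

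Of 17 clock genes none was called, and the median was -0.13. Dbp (-0.45, adjusted p = 0.378) and Hlf (-0.59, adjusted p = 0.447), related PAR bZIP factors, lay below WT on all IkL/L arrays, and Bhlhe40, a repressor of the clock, lay above it on all IkL/L arrays (0.38, adjusted p = 0.442). Nr1d1, the paralogue of Nr1d2 and a classic clock output, was dim (-0.17). The times at which the mice were killed were not given in the sources used here.

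Of 8 thyroid hormone genes 1 rose, Klf9, a Krüppel-like factor induced by thyroid hormone and by glucocorticoids. It was at 11.13, 11.36 and 10.66 in IkL/L cells and 9.75, 9.88 and 10.05 in WT cells (1.15, adjusted p = 0.0425). Its call was kept without IkL/L 3 and lost without any other array (adjusted p = 0.0593 to 0.215). Dio2, the deiodinase that activates thyroid hormone, was higher on all IkL/L arrays but not called (0.44, adjusted p = 0.177), and the dim Me1 gave -0.27 (adjusted p = 0.571). Of 7 vitamin D genes 1 rose, Cd14, a lipopolysaccharide co-receptor of myeloid cells. It was at 5.85, 5.55 and 5.46 in IkL/L cells and 4.76, 4.66 and 4.63 in WT cells (0.93, adjusted p = 0.0210), so that 1 array alone exceeded the level of unexpressed genes, and its call was kept without IkL/L 3 and lost without any other array. Cyp27a1 gave 0.40 (adjusted p = 0.573) and Cyp2r1, at the level of unexpressed genes, -0.07.

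Of 8 oestrogen and progesterone targets, a list that includes Pgr, none was called (median 0.07). Ccnd1, a cyclin that drives cells into the cycle, gave -0.36 (adjusted p = 0.621) and Xbp1 -0.23 (adjusted p = 0.648). Of 8 partners and response genes of the NR4A receptors none was called (median 0.11). Bcl2l11, which encodes the pro-apoptotic protein BIM, was lower on all IkL/L arrays (-0.55, adjusted p = 0.169), and Sphk1, a sphingosine kinase, was at 7.70, 8.27 and 6.69 in IkL/L cells and 6.23, 5.62 and 6.46 in WT cells (1.46, adjusted p = 0.240). Eno3 gave 0.24 (adjusted p = 0.639).

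**Figure D5:**
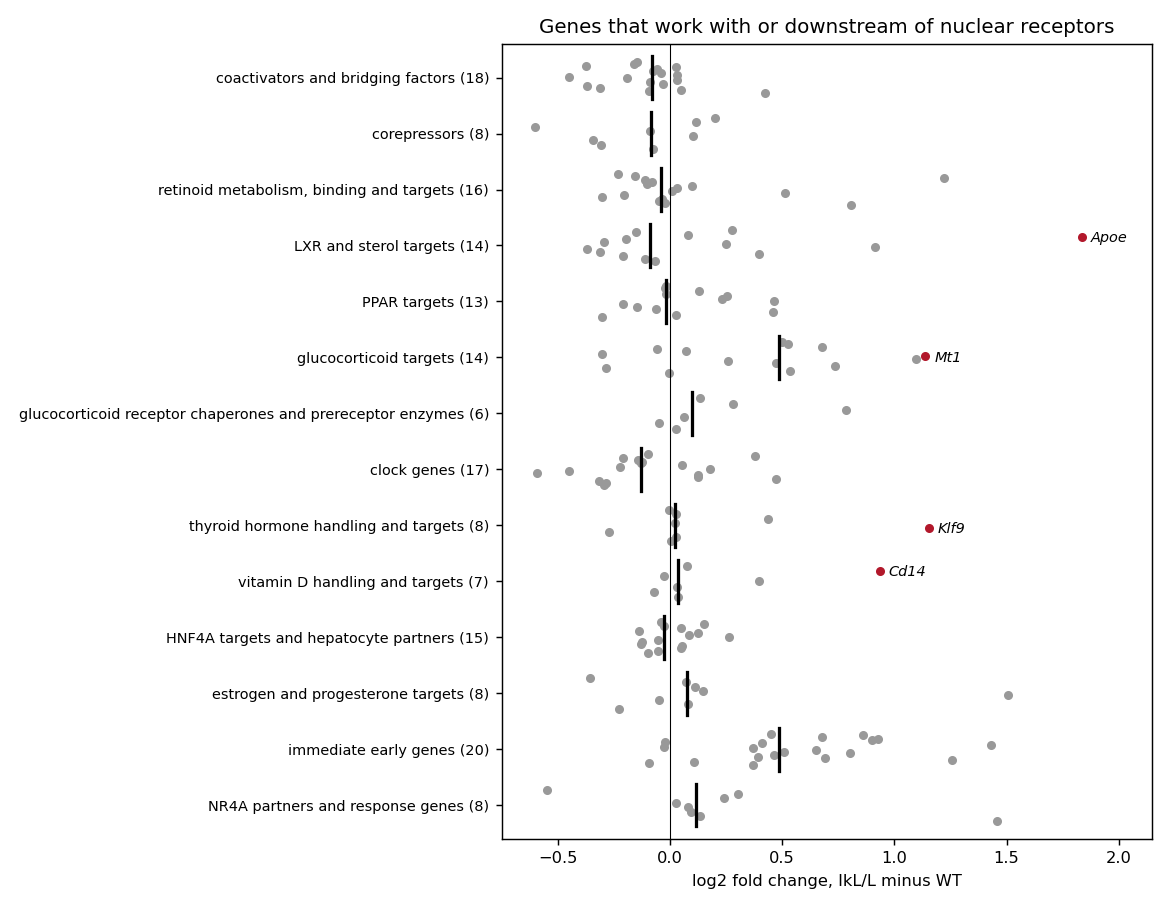
Log2 fold changes, IkL/L minus WT (horizontal axis), of the measured genes of 14 lists that work with or downstream of nuclear receptors; points are genes, black bars the median of a list, and numbers in brackets the genes measured. The 4 called genes, Apoe, Mt1, Klf9 and Cd14, are red and lie between 0.93 and 1.84.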

How the data were processed

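Expression was measured on 6 Affymetrix mouse genome arrays, 3 per genotype. The deposited values are log2 intensities that the authors obtained by RMA (background correction, quantile normalization and probe summary). The submitters' processing notes name RMA and R 2.8. The study's methods describe normalization together with thymocyte arrays, and whether the deposited values come from that joint run is not known. Array medians were 4.79 to 4.88, and a change in total RNA is removed by this normalization.

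Gene names came from the platform annotation and were updated through Entrez numbers in a RefSeq table of GRCm38.p6. Of 45037 probe sets, 34945 had 1 gene (34741 matched by Entrez number), 932 had several and 9160 were not listed. The limma package (version 3.58.1, R 4.3.3) was used with lmFit, eBayes and two-sided tests, and genotype was the only term. The fit was tested on simulated data. Per-array values are given for receptors that were called, had an unadjusted p under 0.05 or belong to NR4A, and values for the called genes and the 3 smallest p of each list. The receptors and lists were chosen with earlier results of these data known. Promoters were found for 40 of the 44 receptors. Same-numbered arrays deviated together with correlations of 0.008, -0.112 and 0.079, so the numbers were not taken as pairs. Alternatives were another normalization, centring, filters, variance models, array weights, covariates, probe set means and leaving out each array.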

Additional observations from a re-analysis of the deposited data

How the results depend on the processing

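Hnf4a was the 1 receptor called in each of the 15 alternative fits. The number of all genes called was 180, and 85 with array spread as covariate, 317 with probe sets averaged by gene and 106 with the replicate number as a block, and it ranged from 45 to 168 when 1 array was left out. The 4 called genes of the pathway lists became 1 with array spread and 1 with the replicate block, and 0 to 6 with 1 array left out. Between 16 and 17 receptors lay above the level of unexpressed genes in IkL/L cells and between 17 and 18 in WT cells with 1 array left out, and 11 in WT cells with the mean of probe sets. Under the block Hnf4a kept its call (adjusted p = 0.0176). Hnf4a was the 1 called gene among the named receptors, and the others kept their side of the threshold by staying uncalled. Of 158 repeats of the named receptors' differences, 156 kept their direction and side of the threshold. The exceptions were Nr4a1 without IkL/L 2 (-0.094, within a range up to 1.189 when 1 array was left out) and Nr4a2 with the mean of probe sets (0.026). Of the named pathway genes, Scd2 turned to 0.013 with the mean of probe sets, and Cyp2r1 ranged from -0.226 to 0.15 with 1 array left out, above 0 without IkL/L 1 or WT 3. The causes were not tested. With 3 arrays per genotype and no detection call, differences of dim receptors cannot be told from background variation.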

Other observations

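Rora, which encodes an activator of clock genes, was read by 9 probe sets, the most of any receptor, and these values were singled out after they had been seen. The 3 brightest were highest on IkL/L 2, at 5.65, 6.22 and 5.74 in IkL/L cells and 6.13, 5.65 and 5.64 in WT cells for the first of them, and gave differences of 0.06, 0.13 and 0.06. On the dim side 2 other probe sets gave -0.33 (adjusted p = 0.365) and -0.34 (adjusted p = 0.415), with all IkL/L values below all WT values. Another dim probe set went the other way (0.20, adjusted p = 0.6), with all IkL/L values above all WT values. Of all probe sets, 14.4% did not overlap between the genotypes. None was called in limma. A dim probe set of Nr4a3 gave -0.40 (adjusted p = 0.368), with all IkL/L values below all WT values.

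Over 1 probe set was available for 28 of the 44 receptors. Besides the chosen one, 12 probe sets of 8 receptors had a mean above the level of unexpressed genes. Among them were 3 of Nr2c2, with differences of -0.05, 0.00 and 0.02, and 1 of Nr2c1, with -0.05.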
